A study of Mus musculus with 57 samples.

Results

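The spleens of mice with 2 HOX-driven leukemias were compared: 6 arrays of CA10 leukemic spleen and 6 arrays of NHD13 leukemic spleen, chosen by their labels alone as 12 of the 57 arrays of the series. The transgene of the CA10 mice is the fusion CALM-AF10 and that of the NHD13 mice is NUP98-HOXD13, and the labels place both under the vav promoter, which is active throughout the blood system. The mice were untreated and were killed when signs of leukemia appeared. No age was given, but wild-type and clinically healthy tissue is described as age-matched. Reference values came from spleen of CA10 mice without clinical signs (5 arrays) and of wild-type mice (2). The same contrast of CA10 with NHD13 was available in mice without clinical signs, as thymus (4 and 3 arrays), lineage-negative bone marrow (3 and 3) and whole bone marrow (3 and 3). Wild-type whole marrow labelled C57B6 (3 arrays) and 6 other wild-type whole marrows, whose strain is not stated, were used to set apart genes that also separate those marrows. The strain of the leukemic mice is not stated. Whether the arrays of a group came from different mice is not stated either, so p-values measure only the spread between arrays. The arrays were expression arrays for mouse genes, so no check of the fusion genes themselves was made.

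HOX proteins are transcription factors that set positional identity in the embryo and self-renewal in blood progenitors, and they bind DNA together with cofactors of the PBX and MEIS families. Both CALM-AF10 and NUP98-HOXD13 are known to keep HOXA cluster genes on in leukemic cells. MHC class II molecules, in the mouse H2-A and H2-E, display peptides to CD4 T cells. They are made by B cells, dendritic cells and macrophages under the coactivator CIITA, and the invariant chain Cd74 and the H2-DM and H2-DO proteins load them with peptide.

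The promoters of class II genes carry a block of short boxes that RFX and NF-Y bind and that CIITA acts through. The core of that block is shown here because the class II genes had the largest median difference of any gene list between the leukemias. Sequences are from RefSeq on GRCm38.p6, 5′ to 3′ on the strand of the gene. The capitals mark AAC, a triplet that all 7 of these sequences hold, and GATTGG, the NF-Y-type box, 24 to 28 bases further on. The spacing was chosen after the class II sequences had been seen. Of the 12 class II symbols listed, 8 had promoter windows. For the class II genes the pair was searched on the strand of the gene only, and only genes on chromosome 17 were counted. Whether a class II gene on another chromosome holds the pair is therefore not shown. Within these limits, these 7 held the pair:
H2-Aa (chr17:34287859-34287910, minus strand): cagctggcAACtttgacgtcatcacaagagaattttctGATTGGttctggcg
H2-Eb1 (chr17:34305770-34305820, plus strand): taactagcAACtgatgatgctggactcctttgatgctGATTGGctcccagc
H2-Eb2 (chr17:34325537-34325587, plus strand): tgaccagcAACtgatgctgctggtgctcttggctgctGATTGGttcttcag
H2-DMb1 (chr17:34153091-34153142, plus strand): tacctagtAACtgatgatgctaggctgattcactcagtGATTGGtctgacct
H2-DMb2 (chr17:34145120-34145171, plus strand): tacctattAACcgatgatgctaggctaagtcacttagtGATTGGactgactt
H2-Oa (chr17:34092297-34092348, plus strand): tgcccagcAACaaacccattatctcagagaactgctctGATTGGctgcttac
H2-Ob (chr17:34238812-34238860, plus strand): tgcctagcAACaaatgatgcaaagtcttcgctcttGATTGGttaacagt

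In these genes the GATTGG box lies 38 to 95 bases before the annotated start. Searched on both strands of all 32851 mouse promoter windows of 300 bases, the spaced pair occurred in 364 (1.11%) and GATTGG alone in 5292 (16.1%). GATTGG alone was present, on either strand, for all 8 class II genes with a window. These matches describe the letters of the windows and are not measured binding.

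The 2 sets of leukemic arrays had similar overall signals (75th percentile 7.46 to 7.64 on the log2 scale in CA10 and 7.54 to 7.72 in NHD13), but they differed in their labelling controls. The added Lys control read 6.32 to 7.98 in CA10 leukemic spleen, against 9.60 to 10.91 in NHD13 leukemic spleen, and C57B6 marrow read 10.02 to 11.39 against 6.12 to 9.43 in the other wild-type marrow. The 3′ minus 5′ signal of Actb, which rises as RNA degrades or is copied short, was 0.23 to 0.51 in CA10 and 0.60 to 1.13 in NHD13. Genotype and labelling thus cannot be told apart in this comparison. With the labelling controls as a covariate, an alternative added after seeing the data, 103 genes were called. By Xist and Eif2s3y, 5 CA10 and 3 NHD13 leukemic arrays were male. All 3 C57B6 marrows were male, whereas of the other wild-type marrows arrays 1 to 3 were male and 4 to 6 female. The female marrows also had a lower 75th percentile, 7.12 to 7.15 against 7.48 to 7.59 on arrays 1 to 3. The marrow comparison thus also differs in sex and scale. CA10 leukemic array 3 carried exocrine pancreas genes at a mean of 10.3, whereas the other CA10 arrays had 5.32 to 5.69 and the NHD13 arrays 5.14 to 5.67. None of the 10 pancreas genes tested was called. The label of leukemia in spleen was checked on marker genes. The 19 B cell genes tested averaged 6.49 to 9.41 per CA10 array and 5.30 to 6.79 per NHD13 array, and 10.82 to 11.25 in wild-type spleen. The 9 primary granule genes, made by myeloid precursors, averaged 9.88 to 10.94 per CA10 leukemic array, 9.01 to 11.44 per NHD13 leukemic array (the lowest being array 3) and 7.74 to 7.80 in wild-type spleen. CA10 healthy spleen was mixed: arrays 1 and 3 had primary granule means of 10.82 and 10.63 and B cell means of 8.95 and 8.50, and the other 3 had 7.25 to 8.53 and 10.66 to 11.34.

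The first comparison asked how far the 2 leukemias differ, and how many of the differing genes also set C57B6 marrow apart. Class II antigen presentation and dendritic cell genes were higher in CA10, and Pbx3 and HOXC cluster genes were lower. A gene was called at an adjusted p under 0.05 (limma, Benjamini-Hochberg over 15314 genes). Of these, 3782 were called (24.7%), 1791 higher in CA10 (11.7%) and 1991 lower (13%). Quantile normalization changed this to 1776 higher and 1344 lower. In 1570 of them (10.3% of genes tested) the 6 CA10 and 6 NHD13 arrays did not overlap, with CA10 higher for 820 (5.35%) and lower for 750 (4.9%). C57B6 marrow against the other wild-type marrow gave 2946 calls (19.2%), 2150 higher (14%) and 796 lower (5.2%), with no array shared with the leukemic comparison. Quantile normalization changed the marrow split to 1745 higher and 1179 lower, and with Xist as a covariate 1790 genes were called in marrow. Of the leukemia calls, 332 (2.17% of genes tested) were too low in marrow to judge. Among the other 3450, 1013 (29.4%) were also called in the marrow comparison, against 18.4% of genes that were not called between the leukemias. They made up 35.1% of the 2883 marrow calls (21.2%) among genes measurable there.

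For 828 of these 1013 genes (81.7%) NHD13 leukemic spleen lay on the side of C57B6 marrow, 288 of them higher in CA10 and 540 lower. These 828 were 5.41% of the genes tested. For 185 (1.21%) it lay on the other side. The remaining 2437 leukemia calls (15.9% of genes tested), 1111 higher and 1326 lower, were not separated by C57B6 marrow. With quantile normalization this class held 1144 higher and 842 lower genes, so its balance of directions depends on the scaling. A gene that is not called in marrow is not thereby equal there. The leukemia difference was therefore also tested together with the marrow difference in 1 model of all arrays. That test adds C57B6 minus other wild-type marrow to CA10 minus NHD13, which sets NHD13 on the C57B6 side for every gene. It called 816 genes (5.33%), 704 higher (4.6%) and 112 lower (0.731%). With the marrow difference subtracted instead, an alternative added after seeing the data that sets CA10 on the C57B6 side, 3182 were called, 1319 higher and 1863 lower. Values from the first test are given below as beyond the marrow difference. The median difference over all genes tested was −0.024 and its quartiles were −0.328 and 0.235.

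**Figure D1:**
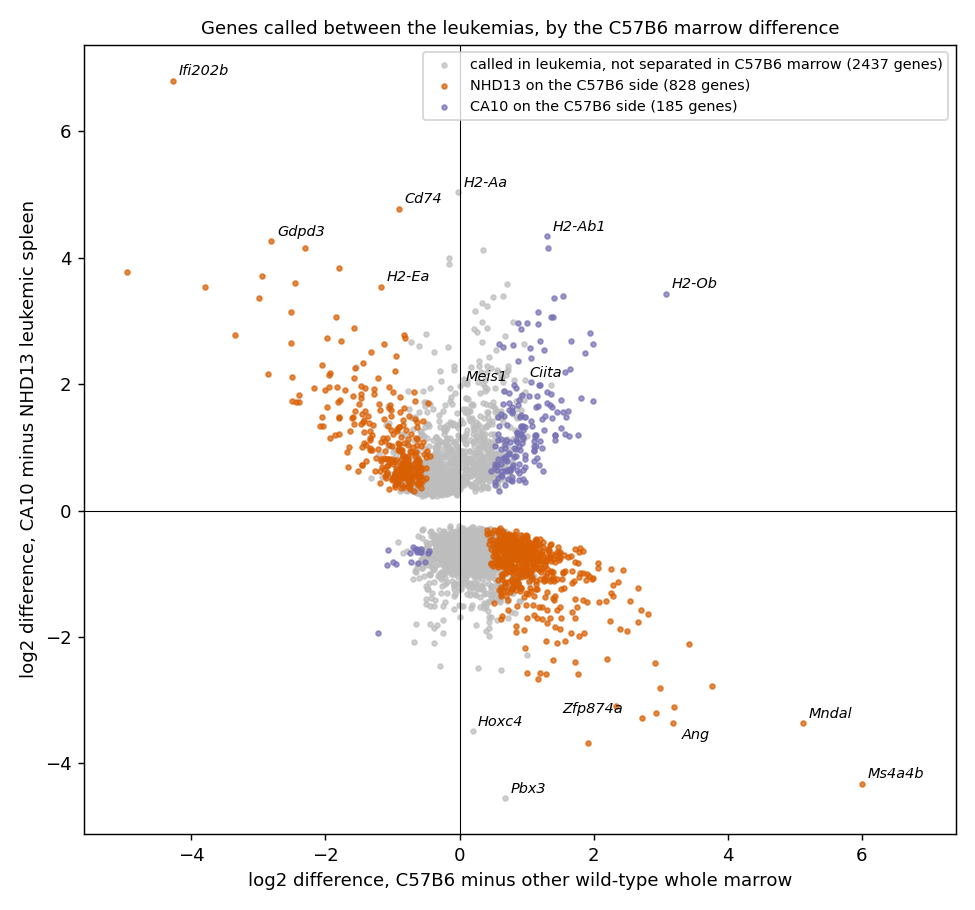
Each point is a gene called between the leukemias, with its log2 difference between C57B6 and other wild-type whole marrow across and its log2 difference between CA10 and NHD13 leukemic spleen upward, colored by whether NHD13 (828 genes) or CA10 (185) lay on the C57B6 side or neither (2437). Pbx3, Hoxc4 and H2-Aa sit far from 0 on the vertical axis and near 0 across, whereas Ifi202b, Ms4a4b, Mndal, Ang and Zfp874a sit far out on both.

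Among genes that C57B6 marrow did not separate, the widest decrease in CA10 was that of a HOX cofactor. Pbx3 is a PBX family partner of HOX proteins. Its log2 signal was 3.60 at the lowest, 6.74 at the median and 8.16 at the highest in CA10 leukemic spleen, against 10.31, 10.91 and 11.43 in NHD13 leukemic spleen. Every NHD13 array was above every CA10 array. The difference was −4.55 ± 0.58 (SE, n = 6 and 6, adjusted p = 3.28e-05), a 23.5-fold lower signal in CA10. A second Pbx3 probe set gave −3.80 (adjusted p = 2.2e-09) with tighter CA10 values. CA10 healthy spleen had a Pbx3 mean of 7.61 and wild-type spleen 7.66, and all 6 NHD13 leukemic arrays stood above both means. Pbx3 was called in all 24 settings tried and beyond the marrow difference (−3.88, adjusted p = 0.000243), also with that difference turned (−5.23, adjusted p = 2.09e-07).

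Meis1, the cofactor that joins HOXA9 in many leukemias, ran the other way. Its signal was 6.63, 8.98 and 9.46 (lowest, median, highest) in CA10 leukemic spleen and 4.48, 6.92 and 8.13 in NHD13 leukemic spleen. The groups overlapped through CA10 array 5, the one CA10 array under the NHD13 maximum. The Meis1 difference of 1.97 ± 0.59 (adjusted p = 0.0217) was a 3.91-fold higher signal in CA10, and the call was lost without CA10 array 4, the highest. Beyond the marrow difference it had the same value of 1.97 and was not called (adjusted p = 0.103). CA10 healthy spleen averaged 8.44 for Meis1 and wild-type spleen 6.34, so NHD13 leukemic spleen, at a mean of 6.65, was near wild type.

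Of the 11 cofactor genes tested, 2 were higher and 2 lower, beside 24.7% of all genes called, with a median difference of −0.22. Besides Pbx3 and Meis1 these were Pbx2 (−0.44, adjusted p = 0.0488) and Pknox1, a MEIS-related partner of PBX (0.54, adjusted p = 0.0326). Their calls were fragile: Pbx2 passed in 8 of 24 settings and Pknox1 in 10. Meis2 (−0.22), Meis3 (0.25), Pbx4 (−0.48), Pknox2 (−0.34), Pbxip1 (0.23), Tgif1 (0.56) and Tgif2 (−0.47) were not called.

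The tested genes of the HOXC cluster, on chromosome 15, were mostly lower in CA10. Of 7 genes on the arrays 5 passed the filter, and 4 of these were lower, with a median of −1.01. Over all genes 13% were lower. A gene high only in NHD13 arrays can pass the filter through those arrays, so this count is not a test of the cluster. Hoxc4 had 4.63, 4.80 and 5.42 (lowest, median, highest) in CA10 leukemic spleen, against 6.57, 8.45 and 9.79 in NHD13 leukemic spleen. The groups did not overlap, and the NHD13 arrays spread over more than 3 log2 units. The difference was −3.49 ± 0.36 (adjusted p = 4.77e-06), an 11.3-fold lower signal, and it was called in all 24 settings. The Hoxc4 mean of 4.88 in CA10 leukemic spleen was close to those of CA10 healthy spleen (4.90) and wild-type spleen (5.08). Hoxc5 (−1.01, adjusted p = 0.00422), Hoxc8 (−1.55, adjusted p = 0.0285) and Hoxc6 (−0.49, adjusted p = 0.0327) were lower as well. Hoxc8 lay between 3.57 and 3.96 in CA10 and reached 7.99 in NHD13 array 3, and its call was lost without NHD13 array 4 or without CA10 array 3. Hoxc6 passed in 11 of 24 settings.

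In the HOXA cluster 2 of 8 tested genes were called, beside 24.7% of all genes, 1 of them higher and 1 lower, with a median of 0.04. Hoxa9, the HOX gene most tied to acute myeloid leukemia, had 8.19, 9.09 and 11.29 in CA10 leukemic spleen and 7.47, 9.39 and 10.16 in NHD13 leukemic spleen. The groups overlapped widely around levels far above the wild-type spleen mean of 4.11. The Hoxa9 difference of 0.11 ± 0.50 had an adjusted p of 0.889. Hoxa10 stood at 0.82 ± 0.42 (adjusted p = 0.155). Hoxa7 was lower in CA10 (−0.73 ± 0.22, adjusted p = 0.0257), with 6.82, 7.05 and 8.36 in CA10 against 7.46, 7.93 and 8.46 in NHD13, and it passed in 14 of 24 settings. Hoxa13 was slightly higher at a low signal (0.56, adjusted p = 0.00245). In the HOXB cluster Hoxb13 was higher (0.33, adjusted p = 0.00492) and Hoxb4 lower (−0.54, adjusted p = 0.0498), of 6 tested, beside the same 24.7%. None of 3 HOXD genes was called, Hoxd13 included (0.17, adjusted p = 0.407).

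**Figure D2:**
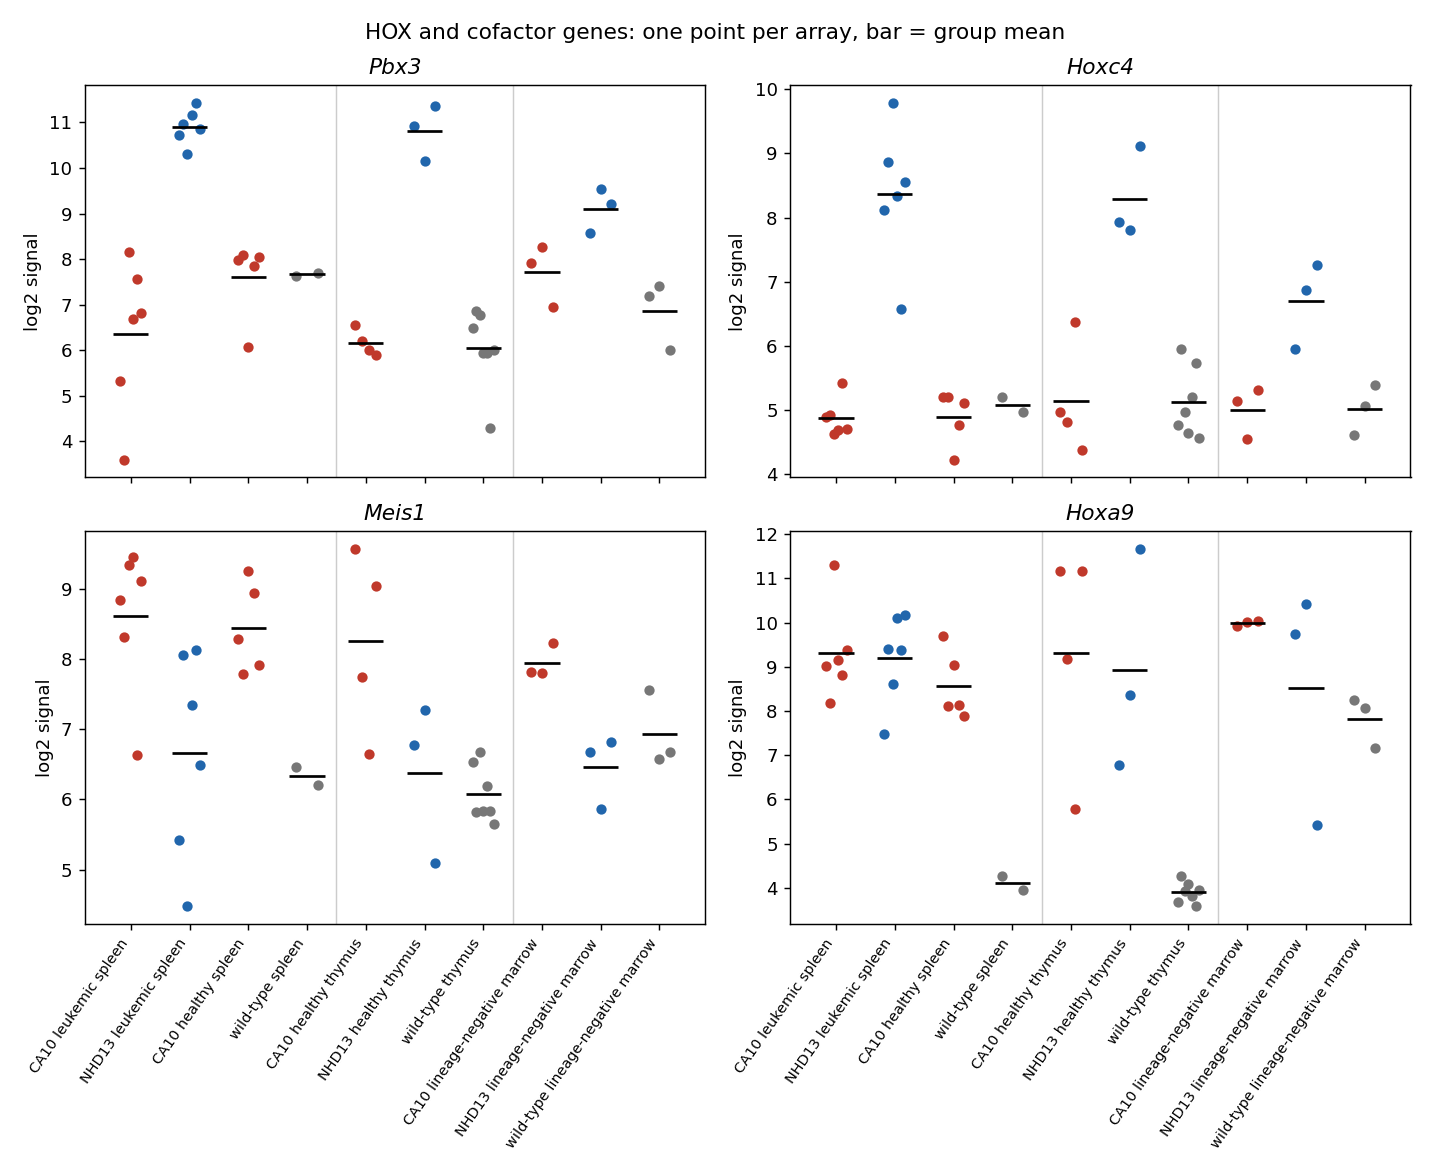
Log2 signal of Pbx3, Hoxc4, Meis1 and Hoxa9 on each array of leukemic and healthy spleen, healthy thymus and lineage-negative marrow, with bars at group means. NHD13 groups lie above CA10 groups for Pbx3 and Hoxc4 in every tissue shown, Meis1 is higher in CA10 leukemic spleen, and Hoxa9 overlaps in leukemic spleen.

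The genes that the fusions are made from or sit beside gave smaller values on their main probe sets. The endogenous Nup98, a nuclear pore gene, had 7.93, 8.47 and 8.65 in CA10 leukemic spleen and 9.01, 9.20 and 9.38 in NHD13 leukemic spleen. The arrays did not overlap, and the difference was −0.82 ± 0.14 (adjusted p = 0.000653), although a second Nup98 probe set was not called (−0.21, adjusted p = 0.5). Dot1l, the histone methyltransferase that AF10 binds, was lower by its main probe set (−0.65, adjusted p = 0.000841), and another probe set gave 0.03. Mllt10, the mouse gene of AF10, stood at 0.04 (adjusted p = 0.933) on its main probe set. On 2 others it gave 0.89 and −1.97, the latter with an adjusted p of 4.31e-05, so its probe sets disagree. Of the 6 genes on this list 3 were lower on their main probe sets and none was higher, beside 13% and 11.7% of all genes. The third was Commd3 (−0.59), a neighbor of Bmi1.

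Class II antigen presentation was the most uniform difference. Of the 10 class II genes tested, 9 were higher in CA10 and none lower, beside 11.7% and 13% of all genes, with a median difference of 3.40. H2-Aa, the alpha chain of H2-A, had 12.37, 13.41 and 13.73 (lowest, median, highest) in CA10 leukemic spleen, against 6.33, 8.55 and 9.47 in NHD13 leukemic spleen. The gap between the groups was wider than the spread within either. The difference was 5.04 ± 0.40 (adjusted p = 2.04e-07), or 32.8-fold. Its partner H2-Ab1 had 11.73, 13.07 and 13.43 in CA10 against 7.05, 8.72 and 9.38 in NHD13 (4.34 ± 0.35, adjusted p = 2.25e-07). Cd74 had 12.00, 13.20 and 13.39 in CA10 against 7.01, 8.34 and 8.82 in NHD13 (4.78 ± 0.31, adjusted p = 1.92e-08). Neither H2-Ab1 nor Cd74 overlapped between the leukemias. Wild-type spleen averaged 13.49 for H2-Aa and 13.26 for Cd74, so for these genes CA10 leukemic spleen was near normal spleen and NHD13 leukemic spleen was not. The class II list averaged 9.45 to 11.24 per CA10 leukemic array, the lowest being array 2. It averaged 6.34 to 7.89 per NHD13 leukemic array and 10.77 to 11.06 in wild-type spleen.

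The loading proteins followed. H2-DMb2 had 7.98, 9.52 and 10.23 in CA10 leukemic spleen and 5.49, 5.97 and 6.71 in NHD13 leukemic spleen (3.38 ± 0.53, adjusted p = 0.00027). Other H2-DMb2 probe sets gave 0.41 and 0.68 and were not called between the leukemias. Those probe sets were higher in C57B6 than in other wild-type marrow, by 2.48 and 2.71, whereas the main one was not called there. H2-DMa, its partner, was higher by 2.20 ± 0.47 (adjusted p = 0.00304), with 9.67, 11.07 and 11.48 in CA10 and 6.24, 8.73 and 9.89 in NHD13. The 2 groups of H2-DMa overlapped between 9.67 and 9.89. H2-Oa (3.07 ± 0.34, adjusted p = 8.26e-06) and H2-Ob (3.43 ± 0.61, adjusted p = 0.000821), the chains of H2-DO that restrains H2-DM, were also higher. H2-Eb2 differed least among the called genes (0.69 ± 0.19, adjusted p = 0.0152).

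H2-Ea and H2-Eb1, the chains of H2-E, did not behave as a pair. H2-Ea, which C57BL/6 mice are known not to express as full transcript, had 9.45, 10.58 and 11.50 in CA10 leukemic spleen and a narrow 6.74, 6.93 and 7.34 in NHD13 leukemic spleen. It was higher in CA10 by 3.54 ± 0.26 (adjusted p = 8.42e-08, 11.6-fold). In C57B6 marrow H2-Ea was 7.03 to 7.35, against 7.91 to 9.06 in other wild-type marrow (−1.17, adjusted p = 0.00213), and in NHD13 thymus it was 8.46 to 8.82. H2-Eb1 was not called between the leukemias, at 7.35, 8.88 and 9.20 in CA10 and 6.49, 8.43 and 9.49 in NHD13 (0.24 ± 0.45, adjusted p = 0.735). The same H2-Eb1 probe set read 10.30 to 10.85 in C57B6 marrow and 6.17 to 7.42 in other wild-type marrow, a difference of 3.93 (adjusted p = 1.01e-07). The reference windows of H2-Eb1 and H2-Aa shown above both hold the spaced boxes, and the promoters of the mice compared were not read.

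How class II genes stood in C57B6 marrow varied by gene and probe set. H2-Ab1 (1.30), H2-DMa (1.57), H2-Oa (1.39), H2-Ob (3.08) and H2-Eb1 (3.93) were higher in C57B6 marrow, and Cd74 (−0.90) and H2-Ea (−1.17) lower. H2-Aa was even on its main probe set (−0.02) but higher on 3 others (1.45, 2.14 and 4.14), which gave leukemia differences of 3.40, 1.92 and 1.91. H2-Eb1, at 0.24 between the leukemias, was called beyond the marrow difference at 4.16 (adjusted p = 7.18e-07), and at −3.69 (adjusted p = 1.12e-06) with that difference turned. With it turned, 6 of the 10 genes were called higher and H2-Eb1 lower. With the labelling controls as a covariate, H2-Aa (4.03, adjusted p = 0.015), H2-Ab1 (3.41, adjusted p = 0.0176), H2-Ea (3.25, adjusted p = 0.00644) and Cd74 (3.86, adjusted p = 0.00398) were called. The other 5 lost their calls there: H2-DMa at 0.90, H2-DMb2 at 1.58, H2-Oa at 2.48, H2-Ob at 2.08 and H2-Eb2 at 0.51.

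**Figure D3:**
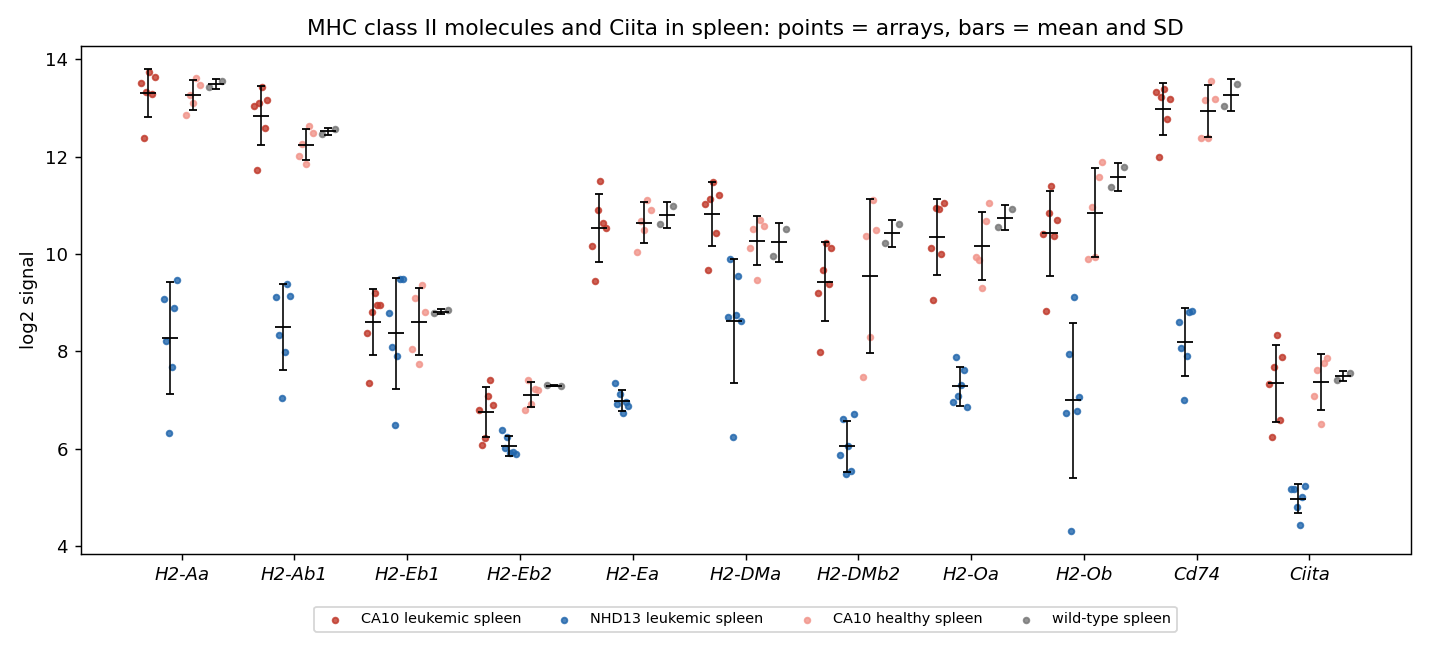
Log2 signal of the 10 class II genes and Ciita on each spleen array, with mean and SD, for CA10 leukemic, NHD13 leukemic, CA10 healthy and wild-type spleen. CA10 leukemic spleen overlaps healthy spleen for most of these genes while NHD13 leukemic spleen lies lower, except for H2-Eb1, where all 4 groups overlap.

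Ciita, the coactivator that class II transcription requires, had 6.25, 7.49 and 8.33 in CA10 leukemic spleen and 4.44, 5.09 and 5.24 in NHD13 leukemic spleen. No array overlapped, and Ciita was higher in CA10 by 2.37 ± 0.31 (adjusted p = 4.42e-05, 5.15-fold), with 2.22 and 2.35 on its other probe sets. Of the 13 genes of class II regulation, processing and costimulation tested, 10 were higher and none lower, with a median of 1.07. The shares of all genes were 11.7% and 13%. Cd83, which keeps class II at the surface, was higher by 2.95 (adjusted p = 1.01e-05), and Marchf1, which removes class II from the surface, by 1.70 (adjusted p = 0.00117). Cd40 had 7.16, 7.99 and 8.52 in CA10 against 5.55, 5.66 and 6.20 in NHD13 (2.12, adjusted p = 3.71e-05). The CD28 ligands Cd86 (1.48, adjusted p = 0.0112) and Cd80 (1.00, adjusted p = 0.000234) were higher, although 2 other Cd80 probe sets gave −0.01 and −0.23. Ctss, the protease that trims the invariant chain, stood at 1.21 (adjusted p = 0.00648), Ifi30 at 1.06 and the promoter factor Rfx5 at 0.51 (adjusted p = 0.0274).

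Class I molecules display peptides to CD8 T cells on nearly all cells. Of 17 genes, 12 were higher and 1 lower, beside 11.7% and 13% of all genes, with a median of 0.66. H2-K1 had 13.05, 13.20 and 13.43 in CA10 leukemic spleen, against 11.17, 11.84 and 12.26 in NHD13 leukemic spleen. These did not overlap (1.36 ± 0.16, adjusted p = 1.27e-05). H2-D1 differed by 1.32 (adjusted p = 1.27e-05), the nonclassical H2-M3 by 1.87 (adjusted p = 5.68e-05), the immunoproteasome subunit Psmb9 by 1.36 and the peptide transporter Tap1 by 1.11. B2m, the shared light chain, was higher by 0.53 (adjusted p = 0.0031). The chaperone Canx was lower (−0.38, adjusted p = 0.0124).

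Genes of the cells that use class II were then examined. In bulk spleen, fewer cells of a type and less RNA per cell cannot be told apart. Of 19 dendritic cell genes, 14 were higher in CA10, 11 of them without overlap between arrays, and none was lower, with a median of 2.00. Over all genes 11.7% were higher, and 5.35% were higher without overlap. Cd209a, the DC-SIGN-like lectin, had 7.75, 9.98 and 12.44 in CA10 leukemic spleen and 5.27, 6.10 and 6.70 in NHD13 leukemic spleen (4.12 ± 0.63, adjusted p = 0.000233). Wild-type spleen averaged 7.62 for Cd209a, so every CA10 array lay above that mean and every NHD13 array below it. Clec10a, another lectin, had 8.44, 10.12 and 11.28 in CA10 against 4.72, 6.03 and 7.37 in NHD13 (4.00 ± 0.70, adjusted p = 0.000716). Itgax, which encodes CD11c, had 7.91, 9.94 and 11 in CA10 against 5.40, 6.41 and 7.42 in NHD13 (3.28 ± 0.47, adjusted p = 0.000112). All 3 also stood above the NHD13 arrays without overlap. Batf3 (2.44) and Xcr1 (2.68), of cross-presenting dendritic cells, Ccr7 (2.62), the homing receptor, and Cst3 (1.49) were higher too. Cd7 had the smallest adjusted p of the list (2.82 ± 0.24, adjusted p = 3.83e-07) and was called with the labelling covariate.

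Flt3, the cytokine receptor of progenitors and dendritic cells, was higher by 2.00 ± 0.63 (adjusted p = 0.0281). It had 9.08, 9.60 and 10.30 in CA10 leukemic spleen and 6.40, 7.24 and 10.75 in NHD13 leukemic spleen. NHD13 array 2 alone, at 10.75, lay above every CA10 array, and the call passed in 16 of 24 settings.

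B cell genes were higher in CA10 for 13 of 19, with a median of 2.23, and 6 of these did not overlap. The shares of all genes were 11.7% higher, and 5.35% higher without overlap. Cd79a, of the B cell receptor, had 6.05, 9.02 and 10.38 in CA10 leukemic spleen and 4.28, 4.78 and 5.48 in NHD13 leukemic spleen (3.84 ± 0.71, adjusted p = 0.000997). Its wild-type spleen mean of 12.30 was above both leukemias. Cd79a was also lower in C57B6 marrow (−1.80), and beyond that difference it was not called (2.04, adjusted p = 0.168). Ms4a1, which encodes CD20, stood at 3.37 (adjusted p = 0.00802), Cd22 at 2.57, Fcer2a at 2.97 and the transcription factor Spib at 2.68. The 3 called genes of 12 for B cell precursors were Il7r (2.04), Igll1 (0.98) and Rag2 (0.84), all higher, a share near the 24.7% of all genes called. B cells and dendritic cells both carry class II. Their lists were higher beside the class II genes, and their part in the class II difference was not tested.

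T cell genes were higher for 8 of 18 and lower for 1, with a median of 0.80. NK genes were higher for 6 of 14 and lower for 1, with a median of 0.97. The shares of all genes were 11.7% higher and 13% lower. Cd4 had 6.97, 7.48 and 7.79 in CA10 leukemic spleen and 6.15, 6.22 and 6.64 in NHD13 leukemic spleen (1.12, adjusted p = 0.000355), both under the wild-type spleen mean of 8.93. Klrd1, the CD94 receptor chain, differed by 3.39 ± 0.56 (adjusted p = 0.000431), with 9.74, 10.12 and 10.94 in CA10 against 3.95, 6.79 and 8.60 in NHD13. Klrk1 (2.75, adjusted p = 5.02e-05) and Ncr1 (2.67, adjusted p = 0.000817) were higher too. The 2 that were lower, Ms4a4b (−4.32) and Klra8 (−1.76), were among the genes higher in C57B6 marrow, at 6.00 and 2.66. Klra8 lies in a family of near-identical genes that probe sets may not separate.

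Differentiation state was read from lineage factors, granule genes and progenitor genes. Of 17 myeloid lineage transcription factors 7 were higher in CA10 and 2 lower, beside 11.7% and 13% of all genes, with a median of 0.67. Their mean was 8.69 to 9.01 per CA10 leukemic array. NHD13 leukemic array 3 had 7.42, under wild-type spleen (8.01 and 8.09), and the other NHD13 leukemic arrays had 8.10 to 8.69. Irf8, which drives monocyte and dendritic cell fates, had 11.09, 11.98 and 12.58 in CA10 leukemic spleen and 7.54, 9.97 and 11.51 in NHD13 leukemic spleen (2.01 ± 0.47, adjusted p = 0.00546). The groups overlapped only between 11.09 and 11.51. Spi1, which encodes PU.1, had 9.29, 9.90 and 10.15 in CA10 against 7.52, 8.67 and 9.02 in NHD13 (1.27 ± 0.29, adjusted p = 0.00501) with no overlap. Irf4 (2.29, adjusted p = 0.000821), Cebpa (1.41, adjusted p = 0.0462) and Id2 (1.19, adjusted p = 0.0177) were higher. Id1 (−1.30, adjusted p = 0.00383) and Runx1 (−0.97, adjusted p = 0.0103), a master regulator of blood formation, were lower.

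Most granule genes of neutrophil precursors were not called. Mpo, the myeloperoxidase, had 10.97, 12.50 and 13.35 in CA10 leukemic spleen and 8.89, 13.06 and 13.36 in NHD13 leukemic spleen. The groups overlapped nearly whole, and the difference of −0.16 ± 0.97 had an adjusted p of 0.924. Elane (1.93), Prtn3 (−0.26) and Ctsg (0.05) were not called, and standard errors of 0.92 to 0.94 limit what these 3 could show. Of 9 primary granule genes, Cst7 (−1.81, adjusted p = 0.00565) and Hdc (−1.76, adjusted p = 0.00419) were lower, beside 13% of all genes. Cst7 encodes a cystatin and Hdc the enzyme that makes histamine. Of 18 late granule genes, Itgb2l alone was called (−1.87, adjusted p = 0.0254), and 2 other probe sets of it gave 0.21 and 0.11. The stefins Stfa3 (−3.68) and Stfa2l1 (−3.09), abundant in NHD13 arrays, were lower in CA10 but also higher in C57B6 marrow (1.92 and 2.34). In CA10 leukemic spleen Stfa3 ran from 4.14 to 12.19.

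Stem and progenitor genes gave 2 higher and 1 lower of 22, beside 24.7% of all genes called, with a median of 0.01. Kit had 7.63, 8.95 and 10.03 in CA10 leukemic spleen and 7.63, 8.84 and 10.16 in NHD13 leukemic spleen (0.00 ± 0.45, adjusted p = 0.998). Cd34 stood at 0.66 ± 0.62 (adjusted p = 0.452). Besides Flt3, Procr was higher (1.18, adjusted p = 0.00603). Gata2, a factor of stem, mast and megakaryocytic cells, was lower (−1.58, adjusted p = 0.00768), with 6.84, 6.99 and 7.79 in CA10 against 7.62, 8.45 and 10.11 in NHD13. C57B6 marrow was also higher for Gata2 (1.31). Monocyte and macrophage genes were higher for 5 of 19 (median 0.74) and lower for none, beside 11.7% of all genes higher and 24.7% called. Clec4a3 (1.88, adjusted p = 0.00362) and Ctsb (0.94) were among them, and Csf1r (0.44), Lyz2 (0.60) and Itgam (0.75) were not called. Of the 5, NHD13 lay on the C57B6 side for 1 and on the other side for 2, and 2 were not separated by C57B6 marrow. None of 17 erythroid (median −0.80) or 13 megakaryocyte genes (median −0.51) was called.

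Of 20 mitotic genes 8 were lower in CA10 and none higher, with a median of −0.59. Of 22 DNA replication genes 4 were lower (median −0.46), a share near the 13% of all genes that were lower. Kif11, a spindle motor, had 7.63, 8.84 and 9.37 in CA10 leukemic spleen and 9.52, 9.81 and 10.29 in NHD13 leukemic spleen (−1.09 ± 0.31, adjusted p = 0.0173). The groups did not overlap, but another Kif11 probe set gave 0.37. Cenpe, of the kinetochore, stood at −0.93 (adjusted p = 0.0154) and Mcm4, of the replication helicase, at −0.67 (adjusted p = 0.00668). CA10 array 4 had the lowest value of Kif11, Cenpe, Cenpf and Cenpa, and Cenpf and Cenpa lost their calls without it. Over all settings Cenpf passed in 17 of 24 and Cenpa in 14.

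Interferon response genes were higher in CA10 for 8 of 22, beside 11.7% of all genes, with a median of 1.26. Their mean was 7.59, 10.18, 7.08, 8.07, 9.03 and 7.10 on CA10 leukemic arrays 1 to 6, against 6.89, 6.85, 6.05, 6.97, 7.92 and 7.27 on NHD13 leukemic arrays 1 to 6. CA10 arrays 2 and 5 were the highest, and CA10 arrays 1, 3 and 6 lay within the NHD13 range. Without CA10 array 2 the list had 7 genes higher and a median of 0.69, and without arrays 2 and 5 it had 6 and 0.35. Stat2, the interferon signal transducer, had 6.65, 6.99 and 8.65 in CA10 leukemic spleen and 4.87, 5.33 and 5.76 in NHD13 leukemic spleen (1.90 ± 0.30, adjusted p = 0.000339). Gbp2 (2.54, adjusted p = 0.00124), Usp18 (2.29, adjusted p = 0.00358) and Xaf1 (1.60, adjusted p = 0.00881) were higher. Cxcl9, an interferon-gamma-induced chemokine, had 8.53, 9.87 and 10.73 in CA10 against 4.59, 5.56 and 8.12 in NHD13 (3.90 ± 0.49, adjusted p = 3.28e-05). Of 16 immediate early genes 5 were higher (median 0.51), beside 11.7% of all genes. Among them were Junb at 1.58 (adjusted p = 3.85e-05) and Btg2 at 1.67 (adjusted p = 0.000664). Another Btg2 probe set gave 0.54 and was not called.

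**Figure D4:**
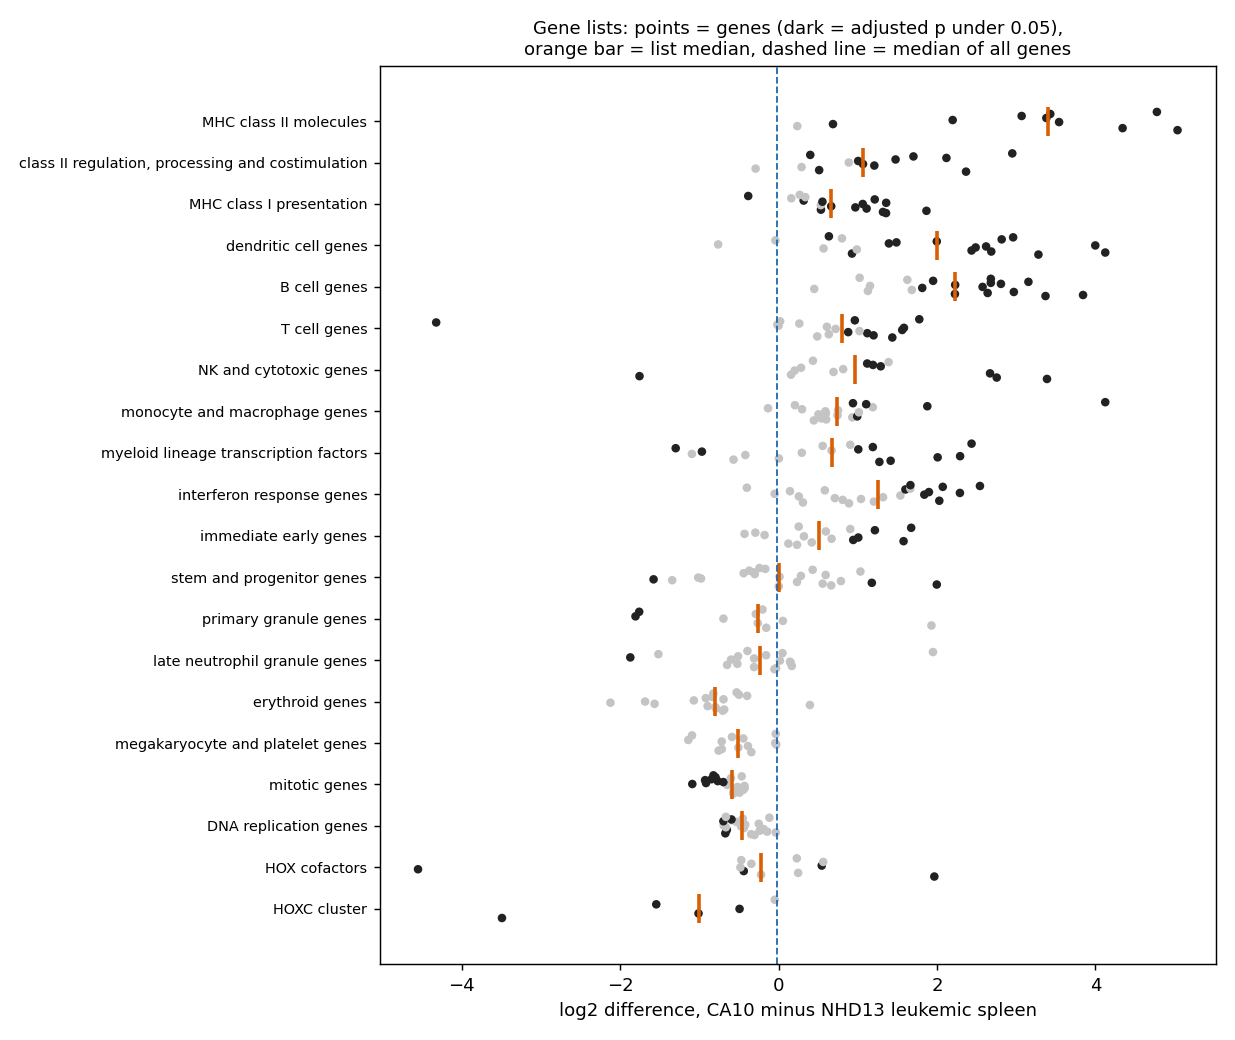
Log2 difference of CA10 minus NHD13 leukemic spleen for each tested gene of 20 lists (dark points passed an adjusted p of 0.05), with the list median in orange and the median of all genes (−0.024) dashed. The medians of class II (3.40), B cell (2.23) and dendritic cell genes (2.00) lie furthest to the right. Those of HOXC (−1.01), erythroid (−0.80), mitotic (−0.59), megakaryocyte (−0.51) and replication genes (−0.46) lie furthest to the left. No erythroid or megakaryocyte gene was called.

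Beyond these lists, the genes with the largest differences among those not separated by C57B6 marrow and without array overlap were named by rule, each judged on its main probe set. Higher in CA10 were, besides H2-Aa, Cd209a, Clec10a, Cxcl9, Klrd1, H2-DMb2 and Itgax, St8sia6 (3.58 ± 0.36, adjusted p = 3.4e-06), a sialyltransferase gene, Plbd1 (3.24) and Traf1 (2.99), an adaptor of TNF receptors. St8sia6 had 7.29, 8.30 and 9.16 in CA10 leukemic spleen, against 3.91, 4.49 and 5.83 in NHD13 leukemic spleen. Lower in CA10, after Pbx3 and Hoxc4, were Mns1 (−2.49), Eya1 (−2.28), Fgd5 (−1.86), Cst7 (−1.81), Cbwd1 (−1.69), Atl1 (−1.68), the metallothionein Mt1 (−1.68) and Map3k6 (−1.54). Eya1, a transcriptional coactivator of organ development, had 4.45, 5.11 and 5.44 in CA10 against 5.76, 7.17 and 9.17 in NHD13 (adjusted p = 0.00171). Fgd5, a gene of hematopoietic stem cells and endothelium, had 4.83, 5.57 and 5.71 in CA10 against 6.19, 7.43 and 7.80 in NHD13 (adjusted p = 1.8e-05). Of 20 stromal and vessel genes 3 were lower (median 0.00), a share near the 13% of all genes: Cdh5 (−1.18, adjusted p = 0.00102), Stab2 (−1.73, adjusted p = 0.00378) and Kdr (−0.79, adjusted p = 0.00475). Another Cdh5 probe set gave 0.14.

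The genes set apart by C57B6 marrow held some of the widest leukemia differences. Ifi202b, an interferon-inducible DNA sensor gene of the p200 family, had 10.42, 11.07 and 12.31 in CA10 leukemic spleen, against 3.68, 4.35 and 4.91 in NHD13 leukemic spleen. The difference of 6.80 ± 0.41 (adjusted p = 7.51e-09) was 112-fold and the largest of the comparison. In C57B6 marrow Ifi202b was 4.15 to 4.53, against 7.73 to 9.80 in other wild-type marrow (−4.27). NHD13 mice without clinical signs had 7.41 to 8.41 for Ifi202b in thymus and 8.96 to 10.10 in whole marrow. In lineage-negative marrow Ifi202b was low in both genotypes, at 4.56 to 5.03 in CA10 and 4.37 to 5.02 in NHD13. The low values of NHD13 leukemic spleen were thus not shared by NHD13 thymus or whole marrow.

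Zfp874a, a zinc finger gene, gave a similar picture with the sign turned. It had 4.31, 4.45 and 4.68 in CA10 leukemic spleen and 7.35, 7.74 and 8.18 in NHD13 leukemic spleen (−3.28 ± 0.15, adjusted p = 1.41e-10). C57B6 marrow had 7.06 to 8.22, against 4.49 to 5.32 in other wild-type marrow. NHD13 thymus (4.19 to 4.50), lineage-negative marrow (4.50 to 4.98) and whole marrow (4.59 to 4.74) were all at the lower level. Mndal (−3.37, with 5.12 in C57B6 marrow), Ang, which encodes angiogenin (−3.37, with 3.18), Ms4a4b (−4.32, with 6.00) and Tspo2 (−3.20, with 2.93) were low in CA10 in the same manner. Higher in CA10 and lower in C57B6 marrow were, besides Cd74 and Cd79a, Gdpd3 (4.26, with −2.81) and the immunoglobulin light chain Igk (4.14, with −2.30), and another Igk probe set gave −0.09.

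This was examined on each array with the 84 genes that differed by at least 2 log2 units in C57B6 marrow, a choice that used no spleen array. Each gene on each array was counted as nearer the C57B6 or the other wild-type marrow mean. In CA10 leukemic spleen 14.3, 31.0, 22.6, 22.6, 19.0 and 21.4% of the genes were nearer C57B6 on arrays 1 to 6. In NHD13 leukemic spleen the shares were 82.1, 71.4, 56, 75, 76.2 and 92.9%. All 6 NHD13 leukemic arrays were above every array outside C57B6 marrow. CA10 healthy spleen (16.7 to 29.8%), wild-type spleen (17.9 to 22.6%), and NHD13 thymus (22.6 to 32.1%), lineage-negative marrow (13.1 to 26.2%) and whole marrow (3.57 to 9.52%) stayed low. The arrays of C57B6 marrow held 98.8 to 100% and the other wild-type marrows 0 to 3.57%. Of the 84 genes, 53 were called between the leukemias with NHD13 on the C57B6 side and 1 on the other side. In whole marrow of mice without clinical signs 22 of the 84 (26.2%) were called between CA10 and NHD13, beside 29.1% of all genes, 7 with NHD13 on the C57B6 side and 15 on the other. Thymus and lineage-negative marrow, with 0.215% and 0% of all genes called, gave no call among them. Strain, labelling and genotype cannot be told apart in the leukemic arrays.

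**Figure D5:**
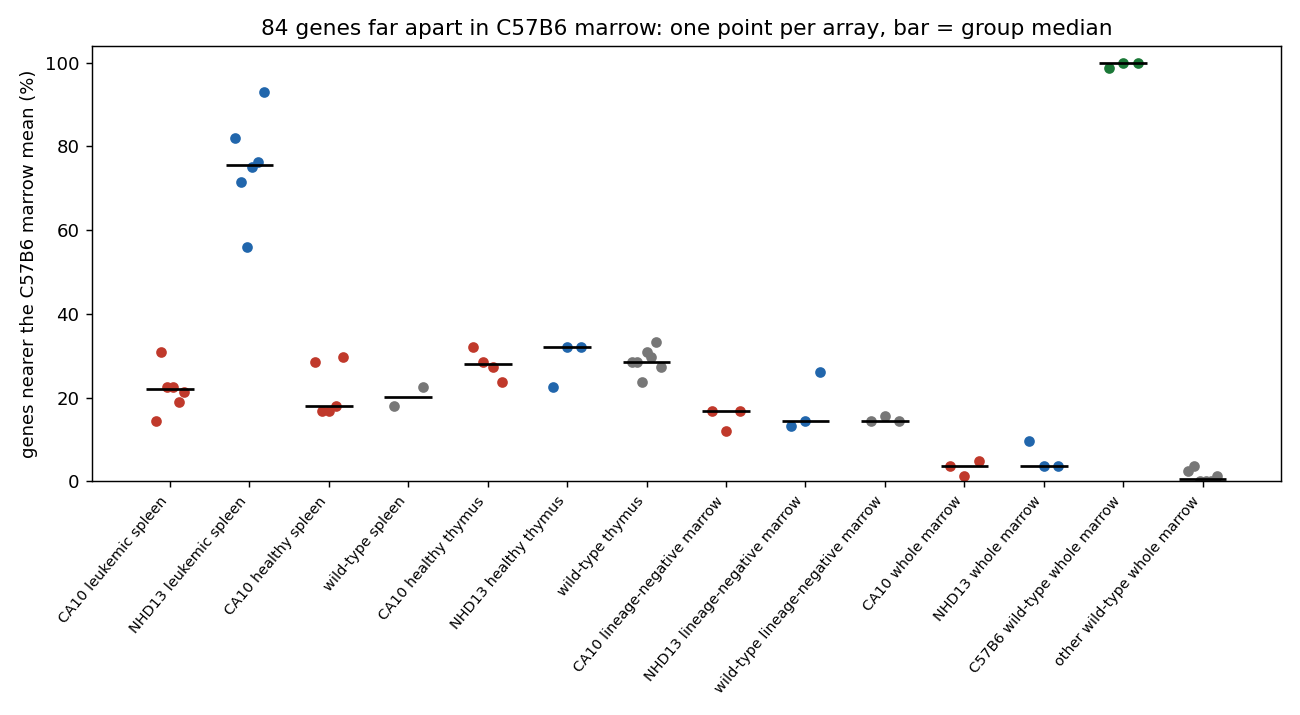
Percentage of the 84 genes far apart in C57B6 marrow that lay nearer the C57B6 than the other wild-type marrow mean, 1 point per array with group medians as bars. NHD13 leukemic spleen (median 75.6%) stands apart from CA10 leukemic spleen (22%) and from all other NHD13 groups.

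Which leukemia lay further from spleen without clinical leukemia was also counted. For 3123 of the 3782 called genes (82.6%) the wild-type spleen mean was nearer CA10 leukemic spleen, and for 84.6% the CA10 healthy spleen mean was. Among genes not separated by C57B6 marrow the shares were 82.2% and 84%. CA10 healthy spleen carries the transgene that CA10 leukemic spleen carries, and its Hoxa9 mean of 8.57 was above the 4.11 of wild-type spleen. These shares include the labelling difference above.

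The last comparisons asked which differences were present before leukemia. In thymus 33 genes were called (0.215%), 4 higher in CA10 (0.0261%) and 29 lower (0.189%). Of these, 14 were called the same way in leukemic spleen, which is 42.4% of the thymus calls and 0.37% of the leukemic calls. Pbx3 was 5.90 to 6.55 in CA10 thymus and 10.15 to 11.37 in NHD13 thymus, with a wild-type mean of 6.04. Its thymus difference of −4.65 (adjusted p = 0.000938) was close to that in leukemic spleen. Hoxc4 (−3.15, adjusted p = 0.0113), Hoxc6 (−2.38, adjusted p = 0.00806) and Hoxc8 (−2.57, adjusted p = 0.000125) were lower in CA10 thymus as well. Klhl4, a kelch family gene, averaged 3.87 in CA10 thymus and 9.30 in NHD13 thymus, and 3.76 and 7.26 in the leukemic spleens. Its differences were −5.43 (adjusted p = 0.000125) and −3.50 (adjusted p = 0.000103). Slc7a5, Map7, Liph, Reep1, Mab21l2 and Aimp2 were lower in both, and Ighm, Bcl6 and Tnfrsf4 higher in both. The other 19 thymus calls, among them Olig3 (−3.88), Fbp1 (−4.35) and Lhx2 (−2.59), were not called in leukemic spleen. The thymus count was 2 in a model of the 2 groups alone, 0 with the replicate number as a block and 217 in a model of all arrays. It was 11 without CA10 array 2, 19 without CA10 array 1 and 17 without NHD13 array 1.

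None of the 10 class II genes was called in thymus. H2-Aa was 12.57 to 13.12 in CA10 thymus and 11.76 to 13.09 in NHD13 thymus (0.26, adjusted p = 0.787). Meis1 stood at 1.88 in thymus (adjusted p = 0.327), with 6.65 to 9.57 in CA10 and 5.09 to 7.27 in NHD13.

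In lineage-negative marrow limma called 0 of 15314 genes (0%), with 321 at an unadjusted p under 0.05 and a smallest adjusted p of 0.157. With the replicate number as a block 1 gene was called, in a model of all arrays 9, and without NHD13 array 3 there were 5. Pbx3 had 6.94 to 8.26 in CA10 and 8.57 to 9.54 in NHD13 lineage-negative marrow (−1.40, adjusted p = 0.964). Hoxc4 had 4.55 to 5.31 in CA10 and 5.95 to 7.26 in NHD13 (−1.70, adjusted p = 0.938). Meis1 had 7.80 to 8.23 in CA10 and 5.87 to 6.82 in NHD13 (1.49, adjusted p = 0.964). For all 3 genes the arrays did not overlap, as for 753 (4.92%) of all genes tested, and none passed the test with 3 arrays each. NHD13 array 3, which holds the highest Hoxc4 and Meis1 of its group, had a 3′ minus 5′ signal of 3.37 for Actb and 2.95 for Gapdh, whereas the other 5 arrays had 0.77 to 1.27 and 0 to 0.27.

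In whole marrow 4452 genes were called (29.1%), 14.3% higher and 14.8% lower, a count that fell to 124 without NHD13 array 2 and to 246 without CA10 array 3. The CA10 whole marrows had a narrow signal range, with a 75th percentile of 7.14 to 7.15 against 7.47 to 7.53 in NHD13. Quantile normalization changed 2192 higher and 2260 lower genes to 2093 and 893. Pbx3 was 6.73 to 7.32 in CA10 and 9.91 to 10.76 in NHD13 whole marrow (−3.31, adjusted p = 6.99e-05), and Hoxc4 was 5.09 to 5.14 in CA10 and 6.15 to 7.74 in NHD13 (−1.84, adjusted p = 0.00384).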

How the data were processed

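RNA of 57 mouse samples in 14 groups was measured on expression arrays. Per the submitters' processing notes the authors used RMA (version not given), and the deposited values are log2 signals of 44943 probe sets (2.58 to 14.65, array medians 5.44 to 5.85). Arrays have no read depth, and precision is limited by how many arrays a group has. Of the probe sets, 34842 matched 1 gene of the platform annotation, 931 several and 9106 none, and 64 were controls. Each gene took the probe set with the highest mean, and 15314 genes above the 40th percentile of an array on at least 3 arrays were tested with limma 3.58.1 (R 4.3.3), with 1 mean per group of a tissue and Benjamini-Hochberg adjustment. No values were imputed and no array was dropped. The test was checked on simulated data. Figures used matplotlib 3.10.9.

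Genes were named by a rule on class, size, array overlap and list membership. Named outside it, after their values were seen, were the thymus calls, uncalled list members such as Mpo and Csf1r, and called ones such as Ccr7, Cd86, Irf8, Runx1, Ms4a1, Xcr1, B2m and Canx. The members and gene lists were chosen with earlier results of these data known. Highest correlation of 2 arrays was 0.996, and no 2 arrays were identical.

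Same-numbered lineage-negative arrays of the 2 genotypes deviated together (r = 0.22, 0.67 and 0.76), so the replicate block is given beside that result. The numbers come from the sample titles, and the titles do not say that they mark litters or days. Alternatives changed the filter, the probe set, the normalization, the arrays in the model, covariates and the arrays left out.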

Additional observations from a re-analysis of the deposited data

Results flagged for a closer look

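Single arrays stood far from the other arrays of their group in 36 of the 256 gene and group combinations examined (Dixon's test at its 95% level, where chance gives about 1 in 20). Of these, 12 were NHD13 leukemic array 3. It was the lowest of its group for the myeloid and antigen presentation genes Spi1 (7.52), Cst3 (10.55), Ctsb (10.71), Clec4a3 (5.94), Cd300a (6.60), H2-DMa (6.24) and H2-M3 (7.19), and for Btg2 (7.49), Fgd5 (6.19) and Mndal (6.23). It was the highest for Map3k6 (8.13) and Pbx4 (5.85).

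CA10 leukemic array 4 was the lowest of its group for the division genes Kif11 (7.63), Cenpe (7.37), Cenpf (7.96), Cenpa (9.10) and Rrm1 (9.79), and for Cbwd1 (4.98) and Mt1 (8.28). CA10 leukemic array 2 was the lowest for H2-Aa (12.37), C1qb (9.64), Stab2 (5.16) and Fgd5 (4.83) and the highest for Ifi202b (12.31).

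The remaining arrays stood out for 1 to 3 genes each. CA10 leukemic array 3 had the highest Hoxa7 (8.36) and the lowest Hoxc5 (4.43), and CA10 leukemic array 5 the lowest Pknox1 (8.18). CA10 leukemic array 6, the female one, had the highest Xist (11.23) and the lowest Eif2s3y (3.25). NHD13 leukemic array 2 had the highest Flt3 (10.75) and NHD13 leukemic array 4 the highest Mcm4 (11.33). NHD13 leukemic array 5 had the highest Cd4 (6.64) and Dot1l (8.50) and the lowest Mllt10 (7.54), and NHD13 leukemic array 6 the highest Cxcl9 (8.12) and Fcer2a (5.55).

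For 2 genes every array moved one way in leukemic spleen and the opposite way in thymus. Fgd5 was higher in CA10 thymus by 0.76 and lower in CA10 leukemic spleen (−1.86), and Zfp874a was higher in CA10 thymus by 0.47 and lower in CA10 leukemic spleen (−3.28). The difference between the tissues was not tested.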

How the results depend on the processing

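The leukemic comparison gave 3782 calls, and 2267 in a model of all 57 arrays, 926 with a log2 change of at least 1, 103 with the labelling controls as a covariate and 1749 without the 4 female arrays. Leaving out 1 array gave 2995 to 3892, and the replicate block 3201. Same-numbered leukemic arrays did not deviate together (r from −0.02 to 0.23, 3 of 6 best with their own number). Genes not separated by C57B6 marrow numbered 1858 to 2880 with 1 array left out. C57B6 marrow gave 1625 calls from its 2 groups alone, 1612 with all arrays, 1158 with the replicate block, 1790 with Xist as a covariate and 1534 to 4271 with 1 array left out (1613, 1928 and 1534 without C57B6 arrays 1, 2 and 3). The difference beyond C57B6 marrow gave 302 calls with wild-type marrows 1 to 3, 1452 with spleen and whole marrow only, 3182 (1319 higher and 1863 lower) with the marrow difference turned and 480 to 945 with 1 array left out (519, 521 and 480 without C57B6 arrays 1, 2 and 3). Its split was 704 higher and 112 lower, and 723 and 271 after quantile normalization. Lineage-negative marrow gave 9 calls with all arrays, 1 with the replicate block, 2 without the third arrays and 0 to 5 with 1 array left out. Whole marrow gave 8375 from 2 groups, 2609 with all arrays, 8750 with the replicate block and 124 to 2801 with 1 array left out (1693, 525 and 246 without CA10 arrays 1, 2 and 3, and 678, 124 and 2801 without NHD13 arrays 1, 2 and 3). Thymus gave 2 from 2 groups, 217 with all arrays, 0 with the replicate block and 11 to 35 with 1 array left out. A size threshold lowers a count by construction. The cause of the other changes was not tested. Of the named-gene values under alternatives 2772 kept direction and side of the threshold, 383 lost and 6 gained their call, and 19 changed sign. With the labelling covariate Hmox1 was −0.088, C1qc −0.24 and C1qb −0.29. Averaging probe sets gave Rrm1 0.0165. Other probe sets gave Rrm1 0.45 and 0.19, Cd80 −0.013 and −0.23, Cdh5 0.14, Ctsb −0.30, Dot1l 0.027, Ifi209 −2.24, Igk −0.087, Itgb2l 0.21 and 0.11, Kif11 0.37, Mcm10 0.063 and 0.049 and Mllt10 −1.97. Labelling, strain and genotype cannot be told apart in the leukemic arrays, and low signals near background compress differences.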

Other observations

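Genes of red pulp macrophages, which recycle iron from old red cells, were higher in CA10 leukemic spleen for 3 of 13 tested, with a median difference of 0.57. Over all genes 11.7% were higher and 24.7% were called. CA10 leukemic array 2 had a list mean of 7.85, against 8.41 to 9.46 on the NHD13 leukemic arrays. Hmox1, the heme-degrading enzyme, was higher by 2.19 (adjusted p = 0.00322, limma), and the complement genes C1qc and C1qb by 1.12 and 1.04. Other C1qb probe sets gave 0.57 and 0.65 and were not called. With the labelling covariate all 3 genes changed sign and lost their calls (Hmox1 −0.088, C1qc −0.24, C1qb −0.29). Genes of mast cells, basophils and eosinophils gave 1 higher and 3 lower of 14 (median −0.38), a share near the 24.7% of all genes called. Siglecf, an eosinophil receptor, was among them at −1.92, beside Hdc and Gata2. The p200 interferon-inducible family, on chromosome 1, was split: of 7 genes tested Ifi202b (6.80), Ifi209 (2.60, but −2.24 with an adjusted p of 0.00356 on another probe set) and Aim2 (1.07) were higher in CA10, and Mndal (−3.37) and Ifi203 (−0.35) lower. Over all genes 24.7% were called between the leukemias. In C57B6 marrow 3 of the 7 p200 genes were higher and 1 was lower than in the other wild-type marrow.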
